A study of Arabidopsis thaliana with 9 samples.

Results

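Translation initiation factors load the ribosome onto messenger RNA, and poly(A)-binding proteins tie the tail of the message to the factors at its cap. The 36 genes described here encode the factors eIF1, eIF1A, eIF2, eIF3, eIF4A, eIF4B, eIF4E, eIF4G, eIF5 and eIF5A of Arabidopsis, with the plant isoforms eIFiso4E and eIFiso4G, and the poly(A)-binding proteins PAB2, PAB4 and PAB8. The set is defined by factor and locus identifier and its rule uses no measured value, but it was drawn up with earlier results of these data known. Of the 36, 35 are measured in the table, and all 35 are among the 19917 of 33278 loci that reached 1 FPKM (fragments counted relative to transcript length and to the total mapped) in at least 2 libraries. The eIF5 locus AT1G36730 is not analysed here. The RefSeq gene table gives a symbol for 27 of the 35. The other 8 were placed by the factor names that define the set, and are printed with their locus identifiers.

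RNA-seq compared 6-day seedlings of wild-type Columbia-0 with seedlings labelled as hd2b hd2c double mutants, in 2 libraries each. Both groups were soil-grown at 21 °C in continuous light. HD2B and HD2C are plant-specific histone deacetylases of the nucleolus, the site of ribosome production. The 2 genotypes are compared to see what differs in the transcripts when both are mutated. The labels give neither the alleles nor whether libraries of a group came from separate plants, so every p-value reflects library-to-library spread alone, and that may be technical. Depth is unknown, because the table holds no fragment counts.

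HD2B stood at 138 and 191 FPKM in Columbia-0 against 24.2 and 24.3 in the labelled mutants (log2 −2.69, adjusted p = 0.000362, limma), a call that ended with no filter on low values (adjusted p = 0.197). HD2C (56.1 and 63.9 against 74.7 and 55.8 FPKM) was not lower, so the samples are called labelled mutants here. HD2A (48.9 and 69.9 against 95.3 and 124 FPKM, adjusted p = 0.109) and HD2D (45.8 and 50.9 against 75.9 and 86.3 FPKM, adjusted p = 0.0476) had higher values. HD2A passed in 5 of 15 other settings (adjusted p from 0.00745 to 0.518 over the 15), and HD2D missed the threshold in 6 of them. FPKM over the whole locus does not show whether a full HD2C transcript was made. The 5 shoot markers summed to 32422 and 30516 FPKM in Columbia-0 against 25013 and 32871 in the labelled mutants, and the 5 root markers to 19.0 and 29.5 against 45.7 and 29.1. Labelled mutant library 1 thus had the lowest shoot and the highest root sum. The median log2 change of the 35 genes described here was 0.32 without it and 0.19 without labelled mutant library 2. It was 0.26 without wild-type library 1 and 0.28 without wild-type library 2. Of the shoot markers 4 of 5 had a log2 change below 0 (median −0.18). In 2 of the 5 both labelled mutant libraries lay below both wild-type libraries, as in 25.1% of all tested loci. Of the root markers 5 of 5 were above 0 (median 0.38). In 3 of them both labelled mutant libraries lay above both wild-type libraries, as in 24.2% of all tested loci. None of these 10 genes passed the test or was at 0 in any library. Markers of dividing cells (4 genes) summed to 79.0 and 82.8 FPKM in Columbia-0 against 105 and 117 in the labelled mutants, each of the 4 with groups that did not overlap, as 24.2% of all tested loci had in that direction. Seed markers (6 genes, of which SESA1, SESA2 and SESA4 are listed at 0 in wild-type library 1) summed to 3.05 and 22.6 against 147 and 246 FPKM, and 3 of the 6 passed as higher. The part of these tissue differences in the values below was not tested, and more cells of a kind cannot be told apart from more RNA per cell in whole seedlings.

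Initiation begins when eIF2 brings the initiator transfer RNA to the small ribosomal subunit, where eIF1, eIF1A, eIF3 and eIF5 assemble with it. The cap-binding protein eIF4E, the scaffold eIF4G and the helicase eIF4A, helped by eIF4B, recruit this complex to the message, which it then scans for the start codon. Plants are particular in having a parallel cap-binding pair, eIFiso4E with eIFiso4G.

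The initiation factors were slightly higher in the labelled mutants as a set, and no single factor passed the test. Of the 35 genes, 30 had a log2 change above 0, where 50.7% of all tested loci did. The median log2 change was 0.28 (quartiles 0.14 and 0.33), against 0.00 over all tested loci (quartiles −0.15 and 0.17). The change is the labelled mutant minus the wild-type mean on the log2(FPKM + 1) scale. In fold terms the ratio of group means ran from 0.886 for eIF4G to 1.39 for the eIF4A-like locus AT1G72730. Both labelled mutant libraries lay above both wild-type libraries for 23 of the 35, against 24.2% of all tested loci, and below them for 1, against 25.1%.

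By limma's moderated test with Benjamini-Hochberg adjustment over all tested loci, 0 of the 35 passed an adjusted p of 0.05 in either direction. Of all tested loci 0.608% passed as higher and 0.552% as lower. At an unadjusted p under 0.05, 11 of the 35 were past, all of them higher, beside 17.2% of all tested loci in either direction. The 95% interval of the change contained 0 for the other 24. The smallest absolute log2 change among called loci was 0.64, larger than that of any factor here. Missing the threshold does not show that levels were equal.

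**Figure D1:**
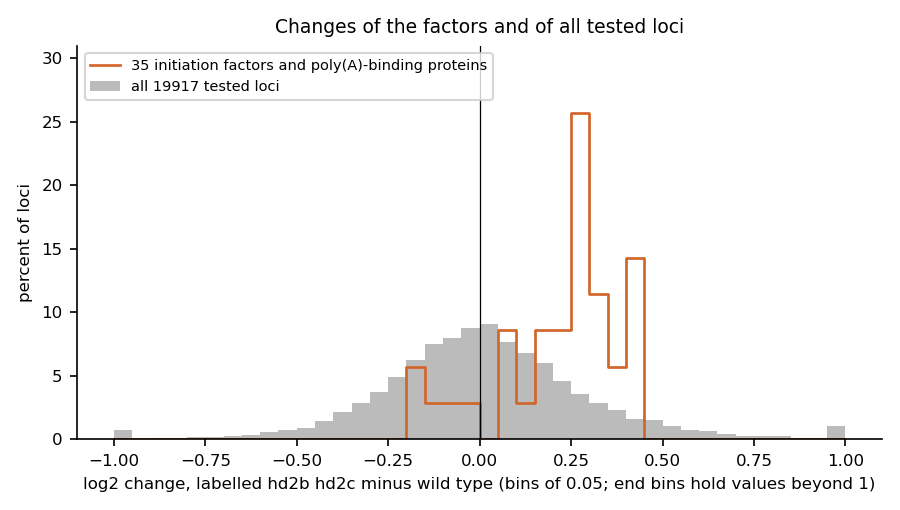
Percent of loci by log2 change, labelled hd2b hd2c minus wild type, in bins of 0.05; grey bars are all 19917 tested loci and the orange line the 35 initiation factors and poly(A)-binding proteins. The orange line has its median at 0.28 and the grey bars at 0.00.

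The shift was present between the libraries numbered 1 (median log2 0.23) and between those numbered 2 (median 0.32), and 29 of the 35 lay above 0 in both. Over all tested loci these medians were −0.001 and 0.006, and 6658 of the 19917 lay above 0 in both. The labels do not say that the numbers pair the libraries. In sum the 35 genes took 0.383% and 0.401% of all FPKM in the wild-type libraries and 0.465% and 0.458% in the labelled mutants. This share does not depend on how a column is scaled, and its groups did not overlap. An exact permutation test of 2 against 2 libraries cannot go below p = 0.333, two-sided, and such tests below are given with that limit.

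Levels of the factors spanned a wide range. eIF5A-2 was highest, at 872 and 932 FPKM in Columbia-0 against 1108 and 1291 in the labelled mutants. eIF4A1 came next, at 301 and 337 against 374 and 480 FPKM. At the low end stood eIF4B1 and eIF4B2, the eIF4A-like locus AT1G72730 and the eIF2α copy AT5G05470, each between 10.4 and 22.1 FPKM in every library. FPKM is scaled to transcript length, so these levels can be set beside each other in broad terms. The gene models and the assignment of reads shared between similar copies are not given, so levels of single copies are uncertain.

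**Figure D2:**
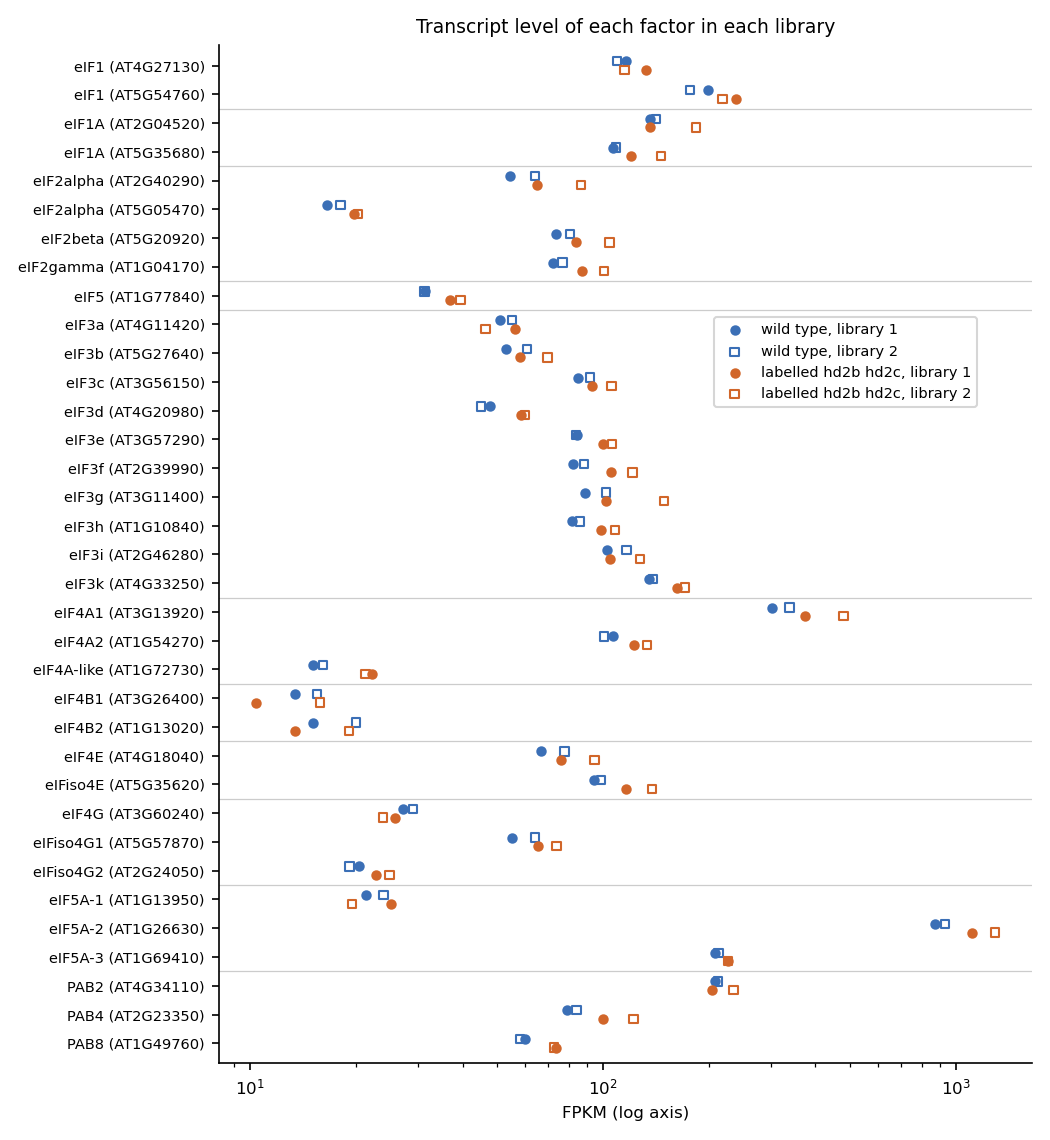
FPKM on a log axis for each of the 35 genes; blue marks are the wild-type libraries, orange marks the labelled hd2b hd2c libraries, filled circles library 1 and open squares library 2. Orange marks lie to the right of both blue marks for 23 genes, and to the left of both only for eIF4G.

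eIF2, a complex of an α, a β and a γ subunit that carries the initiator transfer RNA, was higher in both labelled mutant libraries for all 4 of its genes. Of all tested loci, 24.2% had both labelled mutant libraries above both wild-type libraries. The larger of the α copies, AT2G40290, stood at 54.4 and 64.2 FPKM in Columbia-0 against 65.2 and 86.6 in the labelled mutants (log2 0.34, SE 0.17, adjusted p = 0.345, limma). The smaller α copy, AT5G05470, stood at 16.5 and 18.05 against 19.8 and 20.2 FPKM (log2 0.20, SE 0.12, adjusted p = 0.416). The β gene, AT5G20920, stood at 73.4 and 80.7 against 83.6 and 104 FPKM (log2 0.28, SE 0.15, adjusted p = 0.390). The γ gene, AT1G04170, which binds the transfer RNA, stood at 72.1 and 76.8 against 87.2 and 100 FPKM (log2 0.33, SE 0.13, adjusted p = 0.269). None of the 4 passed.

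The 3 eIF2 subunits were matched in level within each library. With the α copies added, α, β and γ stood at 70.9, 73.4 and 72.1 FPKM in wild-type library 1 and at 82.2, 80.7 and 76.8 in wild-type library 2. The labelled mutant libraries had 84.9, 83.6 and 87.2 FPKM in library 1 and 107, 104 and 100 in library 2. The highest subunit was 1.04 to 1.07 times the lowest in all 4 libraries.

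eIF1 and eIF1A are small proteins that hold the scanning ribosome open and guard the choice of start codon, and eIF5 makes eIF2 hydrolyse its GTP at that codon. The eIF1 locus AT5G54760 stood at 199 and 176 FPKM in Columbia-0 against 238 and 218 in the labelled mutants (log2 0.28, SE 0.14, adjusted p = 0.367, limma). The other eIF1 locus of the set, AT4G27130, overlapped between groups, at 117 and 109 against 132 and 115 FPKM (log2 0.13, SE 0.14, adjusted p = 0.695). Of the eIF1A loci, AT5G35680 did not overlap, at 107 and 109 against 120 and 146 FPKM (log2 0.29, SE 0.14, adjusted p = 0.350). The eIF1A locus AT2G04520 stood at 136 and 141 against 136 and 184 FPKM (log2 0.19, SE 0.17, adjusted p = 0.618). Its difference came from labelled mutant library 2, and without that library its log2 change was −0.02. The eIF5 locus AT1G77840 had close replicates, at 31.3 and 31.2 against 36.9 and 39.4 FPKM (log2 0.28, SE 0.11, adjusted p = 0.270).

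eIF3, the largest initiation factor, is a scaffold that joins the small ribosomal subunit to the other factors and to eIF4G. Of the 10 eIF3 subunit genes in the set 9 lay above 0. The median log2 change of the 10 was 0.28, in a range from −0.05 to 0.40. Loci for eIF3j, eIF3l and eIF3m and second copies of some subunits are outside the set. In 6 of the 10 the groups did not overlap, all with the labelled mutants higher (24.2% of all tested loci), none had them lower (25.1%), and none passed. The smallest p of the 10 was that of eIF3f (AT2G39990). It stood at 82.3 and 88.4 FPKM in Columbia-0 against 105 and 121 in the labelled mutants (log2 0.40, SE 0.14, adjusted p = 0.202, limma). eIF3d (AT4G20980) stood at 48.0 and 45.2 against 58.6 and 60.1 FPKM (log2 0.34, SE 0.12, adjusted p = 0.209). eIF3h (AT1G10840), which in Arabidopsis helps ribosomes resume scanning after short upstream reading frames, stood at 81.6 and 86.2 against 99.0 and 108 FPKM (log2 0.30, SE 0.13, adjusted p = 0.287).

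eIF3k (AT4G33250) had the highest level of the subunits, at 135 and 139 FPKM in Columbia-0 against 162 and 171 in the labelled mutants (log2 0.28, SE 0.13, adjusted p = 0.321, limma). eIF3e (AT3G57290) stood at 84.6 and 83.9 against 99.8 and 106 FPKM, and eIF3c (AT3G56150) at 84.8 and 92.0 against 93.2 and 106. Both had groups that did not overlap. eIF3g (AT3G11400) reached 149 FPKM in labelled mutant library 2, but library 1 (102) was level with wild-type library 2 (102). eIF3b (AT5G27640), with 53.2 and 61.0 against 58.3 and 69.7 FPKM, and eIF3i (AT2G46280), with 103 and 117 against 105 and 127, also overlapped. eIF3i lay below 0 with quantile normalization (log2 −0.01) and without wild-type library 1 or labelled mutant library 2. The remaining subunit, eIF3a (AT4G11420), the scaffold at the core of the complex, stood at 51.1 and 55.2 against 56.3 and 46.5 FPKM (log2 −0.05, 95% interval −0.37 to 0.26). It lay above 0 between the libraries numbered 1 and below 0 between those numbered 2, and at 0.08 after removal of the trend on gene span described below.

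**Figure D3:**
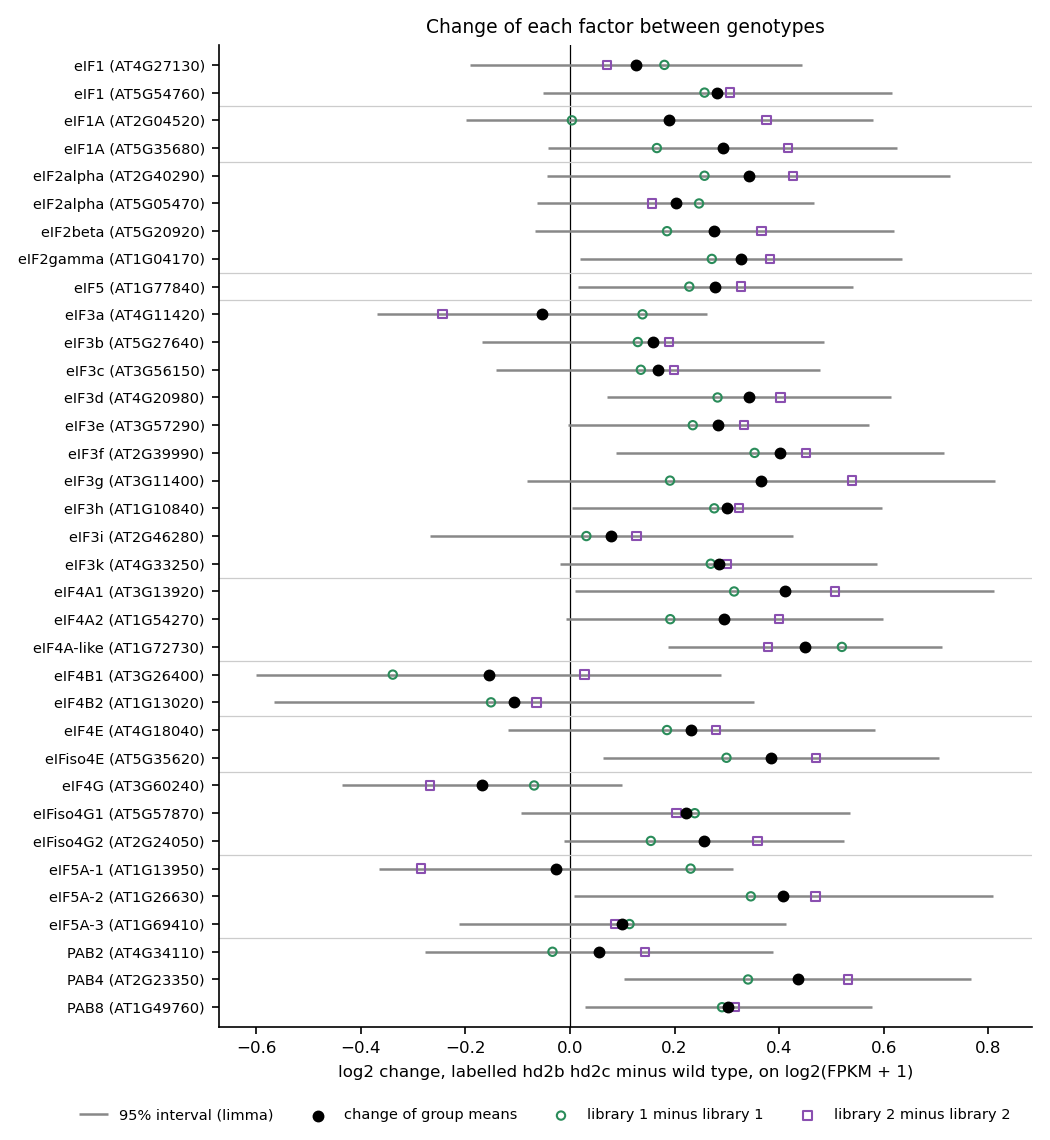
Log2 change of each gene, labelled hd2b hd2c minus wild type, on log2(FPKM + 1); black points are changes of group means, grey bars their 95% limma intervals, green circles the change between libraries numbered 1 and purple squares between libraries numbered 2. Of the 35 black points 30 lie above 0, and 24 of the bars contain 0.

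eIF4A is the RNA helicase that unwinds the leader of the message. All 3 of its genes were higher in both labelled mutant libraries, as 24.2% of all tested loci were. They had the highest median of any factor that has more than 2 genes here (log2 0.41). The eIF4A-like locus AT1G72730 had the smallest p of the 35 genes. It stood at 15.1 and 16.1 FPKM in Columbia-0 against 22.1 and 21.2 in the labelled mutants (log2 0.45, SE 0.11, adjusted p = 0.119, limma). Over 15 alternative settings its log2 change ran from 0.40 to 0.49 and its adjusted p from 0.0740 to 0.496. eIF4A1 (AT3G13920), with most of the family's transcript, had a log2 change of 0.41 (SE 0.17, adjusted p = 0.283). eIF4A2 (AT1G54270) stood at 107 and 101 against 122 and 133 FPKM (log2 0.30, SE 0.13, adjusted p = 0.303). The sum of the 3 was 423 and 454 FPKM in Columbia-0 against 519 and 634 in the labelled mutants.

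eIF4B stimulates eIF4A, and both of its genes had log2 changes below 0. eIF4B1 (AT3G26400) stood at 13.4 and 15.5 FPKM in Columbia-0 against 10.4 and 15.8 in the labelled mutants (log2 −0.16, SE 0.19, adjusted p = 0.732, limma). eIF4B2 (AT1G13020) stood at 15.04 and 19.996 against 13.4 and 19.1 FPKM (log2 −0.11, SE 0.20, adjusted p = 0.829). Both had the higher value of each group in library 2, the groups overlapped, and without labelled mutant library 1 the log2 changes were 0.12 and 0.13. eIF4B2 also lay above 0 without wild-type library 2 (0.09). eIF4B1 and eIF4B2 made up 45.4% and 54.6% of their summed FPKM in Columbia-0 against 44.5% and 55.5% in the labelled mutants.

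The cap-binding proteins were above 0 in both their general and their plant-specific form. eIF4E (AT4G18040), which holds the cap, stood at 67.0 and 77.7 FPKM in Columbia-0 against 76.3 and 94.5 in the labelled mutants (log2 0.23, SE 0.15, adjusted p = 0.482, limma). eIFiso4E (AT5G35620), its plant isoform, stood at 94.5 and 98.9 against 117 and 137 FPKM (log2 0.38, SE 0.14, adjusted p = 0.226), with groups apart. Among the scaffolds, eIFiso4G1 (AT5G57870) stood at 55.2 and 64.1 against 65.3 and 73.9 FPKM (log2 0.22, SE 0.14, adjusted p = 0.455). eIFiso4G2 (AT2G24050) stood at 20.3 and 19.1 against 22.7 and 24.8 FPKM (log2 0.26, SE 0.12, adjusted p = 0.310).

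eIF4G (AT3G60240), the scaffold of the general complex, was the 1 gene of the 35 with both labelled mutant libraries below both wild-type libraries. It stood at 27.1 and 28.9 FPKM in Columbia-0 against 25.8 and 23.8 in the labelled mutants (log2 −0.17, SE 0.12, adjusted p = 0.506, limma). Its share of the 3 scaffold transcripts was 26.4% and 25.8% in wild type against 22.6% and 19.4% in the labelled mutants, a difference of −5.04 percentage points (exact permutation p = 0.333, the smallest possible). The ratio of eIF4E to eIF4G was 2.47 and 2.69 in wild type against 2.96 and 3.96 in the labelled mutants. For eIFiso4E over its own scaffolds together the ratio was 1.25 and 1.19 against 1.32 and 1.39. eIF4G also has the longest span of the 35 genes, 6849 bp. After removal of the span trend its log2 change was 0.02 and the share difference −3.73 percentage points, with groups still apart. With that trend removed, eIF4E had a log2 change of 0.16, closer to that of eIF4G than before. eIFiso4E was at 0.34, near its scaffolds eIFiso4G1 (0.32) and eIFiso4G2 (0.31). The ratios above were not recomputed on that scale.

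Poly(A)-binding proteins bind the tail and, through eIF4G, the cap complex. The 3 genes measured here are the broadly expressed members of the family in Arabidopsis. PAB4 (AT2G23350) had the second-smallest p of the 35 genes, at 78.9 and 84.1 FPKM in Columbia-0 against 100 and 122 in the labelled mutants (log2 0.44, SE 0.14, adjusted p = 0.194, limma). PAB8 (AT1G49760) had close replicates, at 60.1 and 58.2 against 73.7 and 72.6 FPKM (log2 0.30, SE 0.12, adjusted p = 0.254). PAB2 (AT4G34110), the most abundant, stood at 208 and 212 against 204 and 234 FPKM (log2 0.06, 95% interval −0.28 to 0.39, adjusted p = 0.893), and at −0.09 with quantile normalization.

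The mix of poly(A)-binding protein transcripts had groups that did not overlap for PAB2 and PAB4. PAB2 made up 59.99% and 59.8% of the summed FPKM of the 3 in wild type against 53.9% and 54.6% in the labelled mutants, 59.9% ± 0.110 against 54.3% ± 0.491 (SD, n = 2 each; exact permutation p = 0.333). The gap of −5.63 percentage points was the largest of the 24 shares compared, and it was −5.17 after removal of the span trend. Its exact permutation p was 0.571 after Benjamini-Hochberg adjustment, and each SD rests on 2 libraries. PAB4 made up 22.7% and 23.7% against 26.5% and 28.4%, and PAB8 overlapped between groups, at 17.3% and 16.4% against 19.5% and 16.9%. The ratio of PAB4 to PAB2 was 0.379 and 0.397 in wild type against 0.492 and 0.521 in the labelled mutants. Shares within a family do not depend on column scaling, but how reads shared between similar copies were assigned is not given, so values of single copies in every family here are uncertain.

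**Figure D4:**
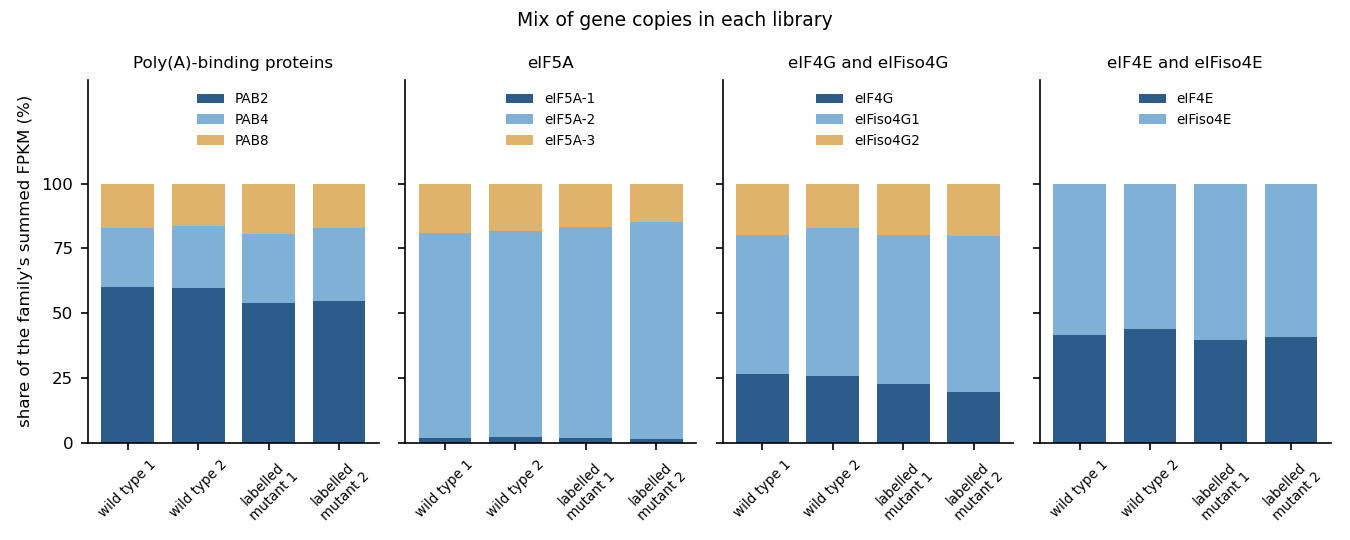
Share of each gene copy in the summed FPKM of its family, in percent, for each of the 4 libraries. PAB2 goes from 59.99% and 59.8% in wild type to 53.9% and 54.6% in the labelled mutants, eIF5A-2 from 79.2% and 79.8% to 81.6% and 84.0%, and eIF4G from 26.4% and 25.8% to 22.6% and 19.4%.

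eIF5A is named as an initiation factor and acts mainly in elongation, where its modified lysine, hypusine, helps ribosomes past difficult stretches such as runs of proline. eIF5A-2 (AT1G26630, also FBR12) had the levels given above and a log2 change of 0.41 (SE 0.17, adjusted p = 0.284, limma). eIF5A-3 (AT1G69410) stood at 208 and 213 FPKM in Columbia-0 against 225 and 226 in the labelled mutants (log2 0.10, SE 0.14, adjusted p = 0.760). Its groups did not overlap, and its log2 change was −0.07 with quantile normalization. eIF5A-1 (AT1G13950), the least abundant copy, stood at 21.2 and 23.9 against 25.1 and 19.4 FPKM (log2 −0.03, 95% interval −0.37 to 0.31, adjusted p = 0.951), with groups that overlapped. It lay above 0 without wild-type library 2 (0.05) or labelled mutant library 2 (0.15). The share of eIF5A-2 in the family was 79.2% and 79.8% in wild type against 81.6% and 84.0% in the labelled mutants, and that of eIF5A-3 was 18.9% and 18.2% against 16.6% and 14.7% (exact permutation p = 0.333 for each).

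In all, 24 shares were compared in 10 groupings of gene copies, and 14 had groups that did not overlap. Of all arrangements of 2 against 2 libraries, a fraction of 0.333 leaves the groups apart in either direction. In these data the levels of 9835 of the 19917 tested loci had groups apart, so the count of shares does not show an excess. After removal of the span trend the shares of the eIF1A loci AT2G04520 and AT5G35680 overlapped. So did those of eIFiso4G1 and eIFiso4G2 among the scaffold transcripts. Their exact permutation p after Benjamini-Hochberg adjustment was at least 0.571. Shares within a family are tied to each other, so these are fewer than 24 separate comparisons. Of the summed FPKM of the 2 eIF1 loci in the set, AT5G54760 made up 63.1% and 61.7% in Columbia-0. In the labelled mutants it made up 64.3% and 65.5%. These shares leave out the eIF1 loci AT5G54940 and AT1G54290, which are outside the set. AT5G54940 was the more abundant, at 577 and 454 FPKM in Columbia-0 against 569 and 422 in the labelled mutants (log2 −0.06). The eIF4A copies kept overlapping shares, with eIF4A1 at 71.2% and 74.3% against 72.2% and 75.7%. Within eIFiso4G, eIFiso4G1 held 73.1% and 77.0% against 74.2% and 74.9%, also overlapping.

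Gene span, taken from the RefSeq table of assembly TAIR10.1, was related to the change over all loci. The median log2 change was 0.15 in the decile of tested loci with the shortest spans (median 850 bp) and −0.17 in the decile with the longest (median 5690 bp). Among the 35 genes, the 7 of up to 2000 bp had a median of 0.20 beside 0.10 for all tested loci of such spans. The 17 between 2000 and 3000 bp had a median of 0.30 beside 0.02, and the 11 above 3000 bp a median of 0.17 beside −0.10. The medians of the factors lay above the loci of like span in all 3 classes. After removal of this trend in each library, 32 of the 35 lay above 0 and the median was 0.27. The genes still below 0 were eIF4B1 (−0.13), eIF4B2 (−0.05) and eIF5A-1 (−0.12). The cause of the trend was not tested.

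**Figure D5:**
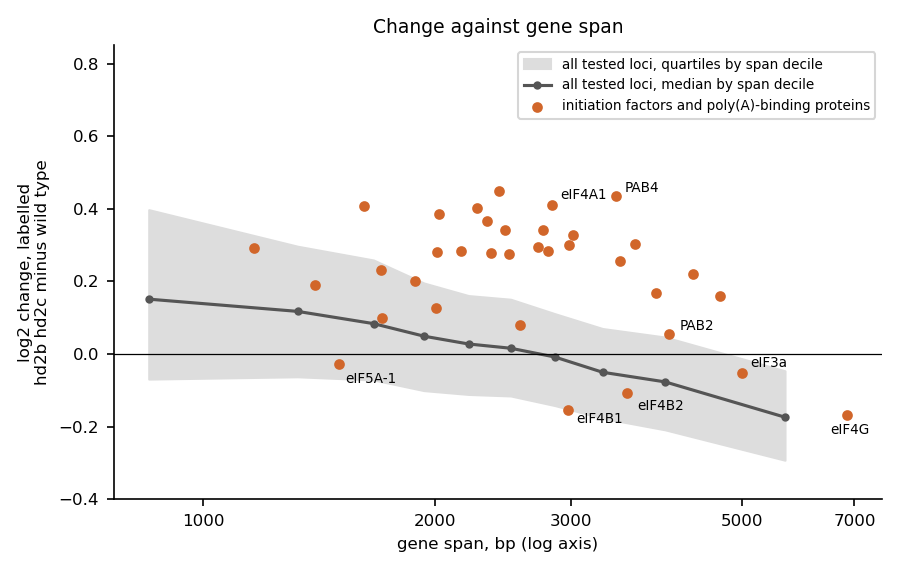
Log2 change against gene span in bp (log axis); orange points are the 35 genes, the line is the median and the grey band the quartiles of all tested loci by deciles of span. The orange points lie mostly above the line, while eIF4G, of the longest span, eIF4B1, eIF4B2 and eIF5A-1 lie near or below it.

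Other genes of the pathway were listed beside the 35. Of 27 other initiation factor and poly(A)-binding protein loci, placed by common usage, 20 were tested, 13 were above 0, the median log2 change was 0.13, and 0 passed. Of these 20, 9 had both labelled mutant libraries above both wild-type libraries and 3 had them below, where all tested loci had 24.2% and 25.1%. eIF6A (AT3G55620), which keeps the large ribosomal subunit from joining too early and acts in its assembly, stood at 65.1 and 80.7 FPKM in Columbia-0 against 105 and 119 in the labelled mutants (log2 0.62, SE 0.15, adjusted p = 0.117, limma). It passed with rescaling that leaves out rRNA loci (adjusted p = 0.0318), with equal column sums (0.0244) and with the replicate block (0.0381), and its log2 change was 0.46 (adjusted p = 0.582) without wild-type library 1. EIF3G2 (AT5G06000), a second and weakly expressed eIF3g gene, stood at 4.14 and 4.50 against 5.77 and 6.71 FPKM (log2 0.44, SE 0.14, adjusted p = 0.190). The eIF5B loci lay below 0. AT1G76720 stood at 1.65 and 2.44 against 1.02 and 0.706 FPKM (log2 −0.70, SE 0.20, adjusted p = 0.151). AT1G21160 stood at 5.83 and 7.00 against 4.90 and 4.23 FPKM (log2 −0.41). AT1G76810 overlapped between groups, at 25.9 and 31.1 against 26.6 and 21.5 FPKM (log2 −0.24). They span 6259, 5365 and 5847 bp, and after removal of the span trend their log2 changes were −0.53, −0.27 and −0.08. PAB1, PAB3, PAB5, PAB6 and PAB7 did not reach the filter, and none exceeded 1.04 FPKM in any library.

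Regulators of initiation lay on both sides of 0. The 16 listed loci were subunits of eIF2B, which recharges eIF2 with GTP, members of the GCN2 and TOR pathways, and enzymes that make hypusine. Of these, 14 were tested, 9 lay above 0, the median log2 change was 0.09, and 0 passed. GCN2 (AT3G59410), the kinase that phosphorylates eIF2α and so slows initiation, stood at 8.39 and 7.48 FPKM in Columbia-0 against 5.90 and 4.31 in the labelled mutants (log2 −0.56, SE 0.17, adjusted p = 0.161, limma). GCN2 spans 10560 bp, and after removal of the span trend its log2 change was −0.29. S6K1 (AT3G08730), a kinase downstream of TOR, stood at 49.7 and 58.7 against 70.7 and 71.1 FPKM (log2 0.39, SE 0.13, adjusted p = 0.203). TOR itself (AT1G50030) had a log2 change of −0.41, and of −0.05 after removal of the span trend. Of the 7 loci of the GCN2 and TOR pathways, 4 had both labelled mutant libraries below both wild-type libraries and 1 had them above. All tested loci had 25.1% and 24.2%. The 7 had a median span of 8944 bp. Of the 6226 tested loci that span more than 3000 bp, 2684 had the labelled mutants below and 812 had them above. After removal of the span trend RAPTOR1 (AT3G08850) had a log2 change of 0.10, GCN1 (AT1G64790) of 0.31 and LST8-1 (AT3G18140) of −0.28. The locus AT3G58180 stood at 18.6 and 16.3 against 23.8 and 21.1 FPKM (log2 0.35, SE 0.13, adjusted p = 0.229).

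Translation elongation factors lengthen the protein chain once initiation is over. Of 12 listed genes 10 lay above 0, their median log2 change was 0.34 (0.27 for the libraries numbered 1, 0.42 for those numbered 2), and 0 passed, with a smallest adjusted p of 0.199 (limma). The difference between the elongation and the initiation medians was not tested. The listed genes with the smallest p were all eEF1A loci. AT1G07920 stood at 118 and 134 FPKM in Columbia-0 against 156 and 199 in the labelled mutants (log2 0.48). AT1G07940 stood at 91.0 and 103 against 120 and 154 FPKM (log2 0.48). AT1G07930 stood at 200 and 236 against 268 and 350 FPKM (log2 0.50). The other eEF1A locus, AT5G60390, had a log2 change of 0.48. How reads shared between copies were assigned is not given, so these may not be separate observations.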

How the data were processed

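RNA was sequenced in 4 libraries of the series' 9 samples, from Truseq libraries, and the other 5 samples are not analysed here. The authors deposited FPKM per locus, per the file headers. Per the submitters' processing notes, TopHat, Bowtie2, bedtools and the build TAIR10 were used; the FPKM program, gene models, strand use and assignment of shared reads were not given in the sources used here. FPKM columns summed to between 956002 and 1105981. limma 3.58.1 in R 4.3.3 was run on log2(FPKM + 1) across the 19917 loci that reached 1 FPKM in 2 or more libraries, with a mean-variance trend, robust moderation and no term but genotype. Two-sided p-values were adjusted by Benjamini-Hochberg across every tested locus (threshold 0.05). The pseudocount understates changes of weakly expressed genes. Fits were tested on simulated data.

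Columns were matched to libraries by genotype abbreviation and number. Symbols and spans came from RefSeq (TAIR10.1), matching 98.6% of loci. Members, lists, tests and alternatives were chosen with earlier results of these data known. All 35 genes are accounted for; full statistics were given for every factor of 4 or fewer genes and, for eIF3, for the 3 smallest p and the highest level. Other lists name the 3 smallest p, and further genes named were chosen after their values were seen. Planned promoter motifs and protein sequences were not analysed here. Alternatives were other filters, pseudocounts, scalings, a replicate block, removal of the span trend and each library left out.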

Additional observations from a re-analysis of the deposited data

How the results depend on the processing

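The count of initiation factor genes passing the test was 0 in each direction under all 16 alternatives, and no gene of the 35 changed its side of the threshold. The median log2 change of the 35 stayed above 0 and was lowest without labelled mutant library 2 (0.19) and with quantile normalization (0.20), and otherwise between 0.23 and 0.32. Leaving out each library in turn gave medians from 0.19 to 0.32, with 29 to 33 genes above 0; the lone library is assumed to vary like the other genotype. The counts of all loci called higher and lower, 121 and 110, were less stable. Without any filter they were 40 and 21, under a filter of mean 5 FPKM or more 79 and 67, after rescaling that leaves out rRNA loci 284 and 243, 320 and 274 with columns of equal sums (added after the data were seen), 69 and 66 with no mean-variance trend and no robust moderation, and 31 and 26 at a threshold of 0.01. After removal of the span trend, 62 were called higher and 80 lower. With the replicate block they were 260 and 172. The labels do not say that the numbers pair the libraries, and deviations of same-numbered libraries correlated at r = 0.17 across loci, from a single independent pairing. Leaving out each library gave 147 to 364 higher and 115 to 155 lower, the highest being without wild-type library 2, and 271 higher without labelled mutant library 1. The call of HD2B ended with no filter on low values (adjusted p = 0.197). The causes were not tested. Depth is unknown, and no simulation covered log2 changes as small as those of these genes.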
